A study of Mus musculus with 6 samples.

Results

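The immediate early transcription factors and Arc were followed in hippocampal RNA from mice in which microglial ribosomes had been tagged. The 10 genes were the Fos family members Fos, Fosb and Fosl2, the Jun family members Jun, Junb and Jund, the transcription factors Egr1, Npas4 and Nr4a1, and the effector gene Arc. They were taken from the table by gene symbol, and all 10 were among the 15388 genes of the deposited table and the 15344 genes tested. The animals were Cx3cr1-cre/ERT2+; NuTRAP+ mice given tamoxifen, by the methods at about 3 months of age and over 5 days, so that Cre driven by the Cx3cr1 promoter recombined the reporter in cells that use this promoter. The NuTRAP reporter puts EGFP on a ribosomal protein, and translating ribosome affinity purification (TRAP) pulls down those ribosomes with the mRNA on them. From each of 3 animals, numbered 201, 207 and 208, the hippocampal lysate before pull-down (Input) and the bound RNA (Positive) were sequenced, giving 3 libraries per fraction. Both fractions came from mice of the same genotype and treatment, with no Cre-negative or untagged pull-down among the 6 libraries, and the sex of each animal is not given in the labels. The purpose of the pull-down was to obtain microglial RNA from a small brain region, and the comparison here asks how immediate early mRNA was distributed between the pull-down and the tissue it came from.

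Immediate early genes are transcribed within minutes of a stimulus, without new protein synthesis, and their mRNAs are short-lived. Fos and Jun family proteins pair through leucine zippers to form AP-1, which binds the AP-1 element and related cAMP response elements in DNA. Signals reach these genes through MAP kinases and calcium, by way of serum response factor with its ternary complex partners and of CREB. In hippocampal neurons Fos, Egr1, Npas4 and Arc are used as marks of recent activity. Arc protein acts at synapses in the removal of AMPA receptors, and Npas4 is close to restricted to neurons. Fos, Jun and Egr1 are also induced in microglia and in other cells by many stimuli, tissue dissociation among them, and Jund is known for a steady level in many tissues.

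The deposited table places the members on build mm10. Fos lay on chromosome 12 (chr12:85473890-85477273, + strand), Jun on chromosome 4 (chr4:95049034-95052222, - strand) and Npas4 on chromosome 19 (chr19:4984355-4989971, - strand). Junb (chr8:84974484-84978718, - strand) and Jund (chr8:70698949-70700616, + strand) shared chromosome 8, and Arc (chr15:74669083-74672570, - strand) and Nr4a1 (chr15:101266846-101274792, + strand) shared chromosome 15. Fosb was at chr7:19302696-19310051 on the - strand and Fosl2 at chr5:32135801-32157842 on the + strand. Jun and Jund each had 1 exon in the GENCODE M21 annotation, whereas Npas4 and Nr4a1 had up to 8. Exons of Jun, Junb and Jund overlapped exons of a gene on the other strand (Junos, Prdx2 and Gm11175), and the authors' alignment used strand.

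The 250 bases upstream of the annotated start are shown for Fos, Jun and Npas4, because these 3 changed between the fractions, in opposite directions, and had a cAMP response element type motif in this window. The sequences are from RefSeq on GRCm38.p6, the assembly named mm10, read in the direction of transcription, with the gene start just after the last base. Capitals mark matches to the cAMP response element core TGACGT or its complement, to the related element TGACNTCA, and to TATAAA.
Fos, chr12:85473640-85473889, + strand: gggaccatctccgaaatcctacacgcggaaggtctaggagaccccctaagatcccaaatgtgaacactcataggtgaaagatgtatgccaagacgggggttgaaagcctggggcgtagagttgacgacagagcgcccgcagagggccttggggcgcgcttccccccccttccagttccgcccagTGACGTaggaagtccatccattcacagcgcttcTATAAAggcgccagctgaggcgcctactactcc
Jun, chr4:95052223-95052472, - strand: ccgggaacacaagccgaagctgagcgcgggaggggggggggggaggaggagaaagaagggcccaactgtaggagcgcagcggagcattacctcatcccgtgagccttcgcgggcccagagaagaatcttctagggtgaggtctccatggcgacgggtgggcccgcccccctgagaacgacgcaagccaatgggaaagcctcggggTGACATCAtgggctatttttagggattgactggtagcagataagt
Npas4, chr19:4989972-4990221, - strand: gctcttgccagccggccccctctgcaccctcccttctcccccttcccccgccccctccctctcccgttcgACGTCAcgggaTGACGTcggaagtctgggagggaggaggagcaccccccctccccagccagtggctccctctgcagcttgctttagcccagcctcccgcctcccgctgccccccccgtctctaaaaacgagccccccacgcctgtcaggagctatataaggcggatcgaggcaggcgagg

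In these windows the core began at position -66 in Fos and at positions -180 and -169 in Npas4, counted from the gene start, and the element TGACNTCA was present as TGACATCA at position -45 in Jun. Windows were at hand for 8 of the 10 members, all but Egr1 and Arc. The core TGACGT was in 2 of the 8 and in 6.47% of 32851 windows of the same length, and TGACNTCA was in 1 of the 8 and in 7.49% of all windows. A window with the core and its complement overlapping can count under both motifs. The EGR motif GCGNGGGCG was in Fosb, Fosl2 and Nr4a1 (3 of 8 members, 4.70% of all windows). The AP-1 element TGANTCA (6.75% of all windows) and the CArG box bound by serum response factor (1.47%) were in 0 of the 8. Elements more than 250 bases upstream were not searched, so this does not show that these genes lack them. Of the other 2 elements, GGGCGG was in 6 of the 8 members and in 32.7% of all windows, and TATAAA was in Fos alone (12.4%). Both strands were searched, the EGR motif and GGGCGG can overlap, and a match describes letters in the window. The G and C content of the members' windows ranged from 47.6% (Jund) to 74.4% (Nr4a1), against a median of 52.4% over all windows. For Jund the RefSeq start was 1210 bases upstream of the start in the deposited table, and for Fosl2 it was 671 bases downstream, so these 2 windows belong to other starts than those of the table.

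Libraries held between 14879734 and 17757918 reads. Values below are scaled reads, that is, deposited read estimates divided by a size factor for each library, and a fold change is Positive over Input on the log2 scale with its standard error (SE) from the fit. A gene was called where the quasi-likelihood test of edgeR gave a Benjamini-Hochberg adjusted p-value under 0.05 over all 15344 genes. The methods name no molecular identifiers, so read depth speaks to counting error only. The tests rest on the spread between 3 animals, with the spread of each gene drawn toward a trend over all genes. All 8 microglial markers rose in the Positive fraction, by a median of 24.8-fold, and they summed to 4393-4769 scaled reads in the Input libraries and 86823-128003 in the Positive libraries. All 8 oligodendrocyte markers fell, with a median log2 fold change of -2.13. The neuronal list was close to even between the fractions, with a median log2 fold change of 0.06 and 3 of 8 markers called (Gad1 and Gad2 higher, Map2 lower), and summed levels of 92878-105520 in Input and 95740-112003 in Positive. Neuronal mRNA was thus abundant in the Positive libraries. All 8 endothelial markers rose, with a median log2 fold change of 1.94 and summed levels of 1787-2176 in Input and 4652-9475 in Positive. For astrocytes 3 of 8 markers were called (Slc1a2 higher, a call lost in 4 of the 6 fits without 1 library, Gfap and Gja1 lower; median -0.29), for mural cells 1 of 6 (Cspg4, lower; median -0.29), and for subfields of hippocampal neurons 4 of 6 (Prox1 and C1ql2 higher, Wfs1 and Fibcd1 lower; median -0.05). With the animal as a block 6 of 8 astrocyte markers were called, 5 of them lower (Aqp4, Aldh1l1 and Kcnj10 being added), as were 2 of 6 mural and 5 of 6 subfield markers. Input and Positive of an animal came from the same lysate, so these differences describe RNA recovered by the pull-down and not numbers of cells. How much of the Positive RNA was bound to tagged ribosomes was not tested.

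Against this background the immediate early genes moved little. Of the 10 members, 5 were called, which was 50% beside 46.0% of all genes tested. Fos, Jun and Junb rose in the Positive fraction (3 of 10, beside 24.0% of all genes), and Jund and Npas4 fell (2 of 10, beside 22.0%). Values of the fractions did not overlap for 5 members (Fosb, Jun, Junb, Jund and Npas4), beside 56.5% of all genes. These shares were near those of all genes. The median log2 fold change of the 10 was 0.02, and that of all genes was -0.01. The size factors place the bulk of genes near 0, so both medians are relative to that centre. Under total count scaling the median of all genes was -0.09. The median size of the change without its sign was 0.28 on the log2 scale for the members and 0.31 for all genes. No member moved past 2-fold, and the 95% intervals of all 10 stayed between -0.98 and 0.80 on the log2 scale. With the animal number as a block, which pairs the 2 libraries of each animal, 6 members were called, Nr4a1 being the addition. Without the Input library of animal 207, 3 members were called (Jun, Jund and Npas4).

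**Figure D1:**
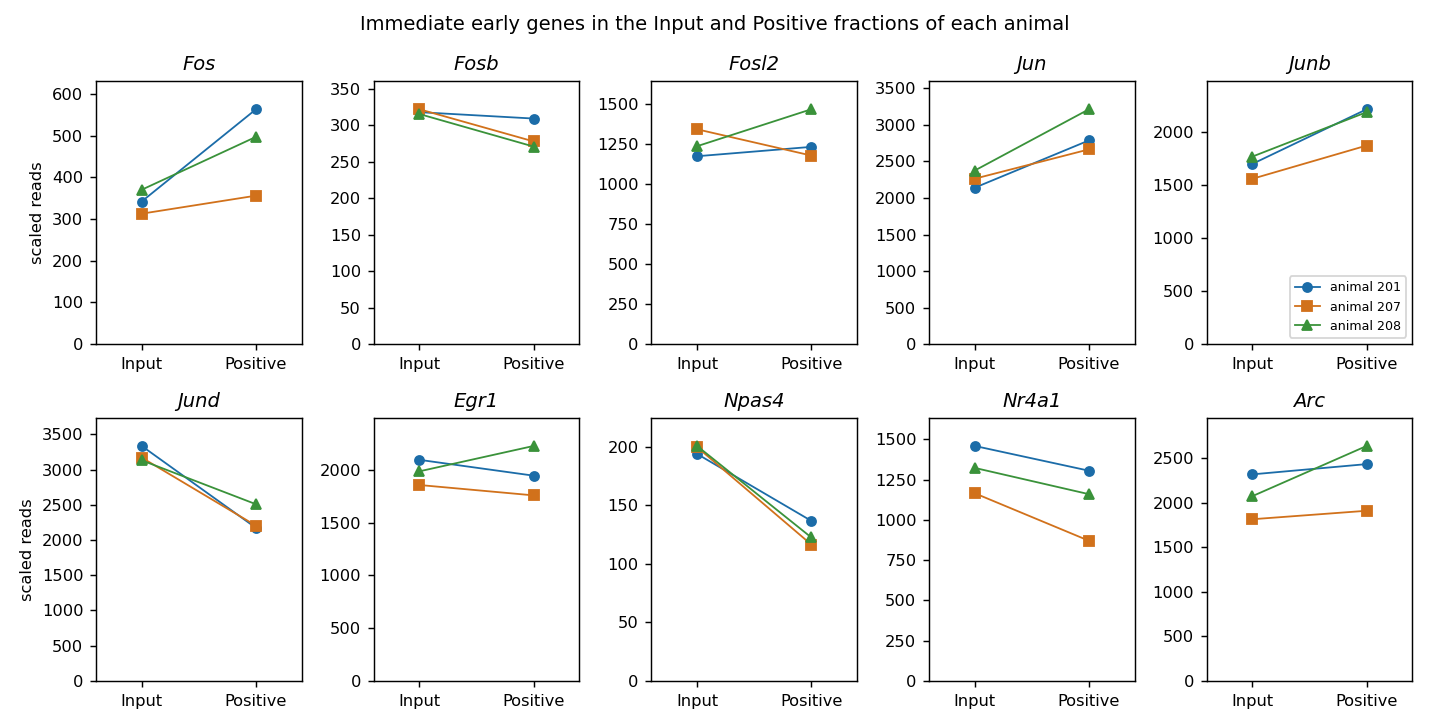
Scaled reads (vertical axes, each from 0) of the 10 genes in the Input and Positive fraction (horizontal axes), with 1 point per library and a line for each of the 3 animals. The 3 lines run upward for Fos, Jun, Junb and Arc and downward for Fosb, Jund, Npas4 and Nr4a1. For Fosl2 and Egr1 the direction differs between animals.

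Fos, the founding member of the family and the partner of Jun proteins in AP-1, had 342, 313 and 370 scaled reads in the Input libraries of animals 201, 207 and 208, and 563, 356 and 497 in the Positive libraries. It was higher in the Positive fraction of each animal, but the Positive value of animal 207 lay below the Input value of animal 208, so the fractions overlapped. The log2 fold change was 0.47 ± 0.15 (SE), with a 95% interval of 0.13 to 0.80 and an edgeR adjusted p of 0.0261. This call was the least firm of the 5. The edgeR adjusted p was 0.120 without the Positive library of animal 201. Leaving out the Input library gave 0.0696 for animal 201 and 0.1004 for animal 207 (edgeR adjusted p), and scaling libraries by total count gave 0.0563. Fosb, which encodes a long and a truncated protein, had 318, 322 and 316 scaled reads in Input and 309, 278 and 271 in Positive. All 3 Positive values were below all 3 Input values, yet the log2 fold change was -0.16 ± 0.12 with an edgeR adjusted p of 0.295, and the interval of the fold ran from 0.753 to 1.07. Fosl2, which encodes Fra-2, had 1173, 1342 and 1236 scaled reads in Input and 1232, 1177 and 1467 in Positive. It was higher in 2 animals and lower in animal 207, and the difference of 0.05 ± 0.10 was within the spread between animals (edgeR adjusted p = 0.722, fold interval 0.894 to 1.19). The estimate for Fosl2 turned negative without the Positive library of animal 208 (-0.05) and under total count scaling (-0.03). Fosl1, the remaining gene of the family, was not in the table analysed here.

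The Jun family split. Jun, which encodes c-Jun, had 2140, 2264 and 2375 scaled reads in Input and 2788, 2666 and 3214 in Positive. Every Positive library was above every Input library, with a log2 fold change of 0.35 ± 0.09 (95% interval 0.17 to 0.54, edgeR adjusted p = 0.00499). Junb, a Jun protein known to restrain c-Jun in several cell types, had 1696, 1556 and 1765 scaled reads in Input and 2211, 1869 and 2184 in Positive. The fractions again did not overlap, and the log2 fold change of 0.32 ± 0.09 (95% interval 0.13 to 0.51, edgeR adjusted p = 0.00979) was close to that of Jun. The Junb call was lost without the Input library of animal 207, where the edgeR adjusted p was 0.0582. Jund, the most abundant of the 3, had 3337, 3171 and 3133 scaled reads in Input and 2172, 2204 and 2508 in Positive. It fell in all 3 animals, and its log2 fold change of -0.49 ± 0.08 (95% interval -0.66 to -0.31, edgeR adjusted p = 0.00031) had the smallest adjusted p of the 10 members.

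Within each animal the log2 ratio of Positive to Input was 1.00, 0.76 and 0.76 higher for Jun than for Jund in animals 201, 207 and 208, a mean of 0.84 ± 0.14 (SD, n = 3). The same difference between Junb and Jund was 0.81 ± 0.19, and that between Jun and Junb was 0.03 ± 0.08. With 3 animals an exact two-sided sign-flip test cannot give less than p = 0.25, so these differences are given as values. Expressed per kilobase of exon, Jund made up 57.3% ± 1.70 (SD, n = 3) of the summed Jun family reads in Input and 43.1% ± 1.52 in Positive. The share of Jun went from 21.1% ± 1.22 to 28.4% ± 0.658, and that of Junb from 21.6% ± 1.03 to 28.5% ± 1.87. Jund thus stayed the leading Jun family mRNA in both fractions, with a smaller lead in the Positive fraction. In the Fos family the same shares moved less against their spread. The share of Fos was 44.6% ± 3.05 in Input and 52.4% ± 4.94 in Positive, that of Fosb 15.7% ± 0.545 and 12.2% ± 1.69, and that of Fosl2 39.7% ± 2.76 and 35.4% ± 4.20.

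**Figure D2:**
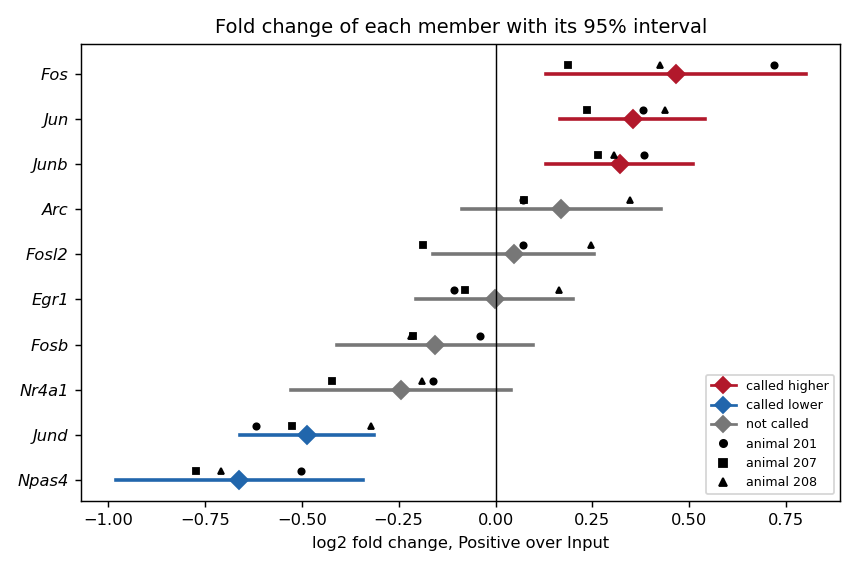
Log2 fold change of Positive over Input (horizontal axis) for each of the 10 genes (vertical axis), with diamonds at the edgeR estimate, bars for its 95% interval and small black marks for the ratio within each of the 3 animals. Fos, Jun and Junb lie to the right of 0 and Jund and Npas4 to the left, and the other 5 intervals span 0.

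Among the other transcription factors Npas4, a basic helix-loop-helix factor induced by calcium entry, had the lowest level and the largest change. Its scaled reads were 194, 200 and 201 in Input and 137, 117 and 123 in Positive. The fractions did not overlap, and the log2 fold change was -0.66 ± 0.15 (95% interval -0.98 to -0.34, edgeR adjusted p = 0.00276). The Positive level was 63.2% of the Input level. For Npas4 the call held under all 15 alternatives, as it did for Jun and Jund.

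Egr1, a zinc finger factor also named Zif268, had 2096, 1857 and 1987 scaled reads in Input and 1945, 1759 and 2227 in Positive. It was higher in Positive only in animal 208, and the log2 fold change was -0.00 ± 0.09 (edgeR adjusted p = 0.988), with a fold interval of 0.868 to 1.15. Its sign changed when single libraries were left out. Nr4a1, an orphan nuclear receptor also named Nur77, had 1459, 1165 and 1323 scaled reads in Input and 1305, 870 and 1159 in Positive. It was lower in the Positive fraction of each animal, while animals differed more among themselves than the fractions did. The unpaired log2 fold change was -0.24 ± 0.13 (edgeR adjusted p = 0.147), and the fit with the animal as a block gave -0.26 with an edgeR adjusted p of 0.0174. The unpaired estimate for Nr4a1 depended on single Positive libraries, at -0.38 (edgeR adjusted p = 0.0323) without that of animal 201 and -0.09 (edgeR adjusted p = 0.525) without that of animal 207. It was -0.16 (edgeR adjusted p = 0.409) without the Input library of animal 201. The within-animal log2 ratio of Nr4a1 was 0.40 ± 0.10 (SD, n = 3) above that of Npas4.

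Arc, the one member that is no transcription factor, had 2319, 1815 and 2074 scaled reads in Input and 2434, 1910 and 2638 in Positive. It was a little higher in the Positive fraction of each animal, by log2 ratios of 0.07, 0.07 and 0.35, and the fractions overlapped. The log2 fold change was 0.17 ± 0.12 (95% interval -0.09 to 0.43, edgeR adjusted p = 0.263), and it too depended on single libraries. It was 0.29 (edgeR adjusted p = 0.0451) without the Positive library of animal 207, 0.26 (edgeR adjusted p = 0.139) without the Input library of animal 201, 0.07 (edgeR adjusted p = 0.630) without the Positive library of animal 208 and 0.08 (edgeR adjusted p = 0.653) without the Input library of animal 207. Within animals the log2 ratio of Arc exceeded that of Npas4 by 0.57, 0.85 and 1.05. The 2 members best known from neurons, Arc and Npas4, thus stood at different positions between the fractions.

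Compared per kilobase of exon, the members kept the same order of level in both fractions. In Input, Jund led with 1927 scaled reads per kilobase, followed by Junb (727), Jun (709) and Arc (677). Egr1 (442) and Nr4a1 (375) came next, then Fos (145) and Fosl2 (129), and Fosb (51.1) and Npas4 (47.9) were lowest. The library ranges of Junb and Jun, of Jun and Arc, of Egr1 and Nr4a1 and of Fos and Fosl2 overlapped, so the order within these pairs is not settled. In Positive the levels were 1376 for Jund, 908 for Junb, 906 for Jun, 761 for Arc, 441 for Egr1, 317 for Nr4a1, 201 for Fos, 133 for Fosl2, 45.8 for Fosb and 30.3 for Npas4. There the ranges of Junb and Jun, of Jun and Arc and of Fos and Fosl2 overlapped, while Egr1 and Nr4a1 no longer did.

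Several members varied between animals in the same direction in both fractions. Animal 207 had the lowest value of the 3 in both Input and Positive for 5 members (Fos, Junb, Egr1, Nr4a1 and Arc), and 8.76% of all genes tested had their lowest value in animal 207 in both fractions. In the Positive fraction alone animal 207 was lowest for 8 of 10 members, and for 24.7% of all genes. The members were not alone in this, since it was also lowest there for 6 of 8 neuronal markers and 5 of 8 heat shock chaperones. The neuronal markers Snap25, Syt1, Rbfox3, Map2 and Slc17a7 had their lowest value in animal 207 in both fractions. In Positive, animal 207 was lowest for 9 of 29 other rapid immediate early genes and 4 of 14 activity effectors. It was lowest there for 1 of 6 hippocampal subfield markers and 0 of 8 microglial markers. Between the highest and lowest animal the Positive level differed 1.58-fold for Fos, 1.50-fold for Nr4a1 and 1.38-fold for Arc, and the Input level 1.28-fold for Arc and 1.25-fold for Nr4a1. For Nr4a1, Arc, Egr1 and Fosl2 this range between animals was wider, in both fractions, than the mean difference between the fractions. For Fos and Fosb this held among the Positive libraries alone, the fold between the fractions being 1.38 for Fos. Npas4 and Fosb, by contrast, differed by only 1.04-fold and 1.02-fold among the Input libraries. The labels give no handling time or order for the animals, so what set animal 207 apart was not tested.

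**Figure D3:**
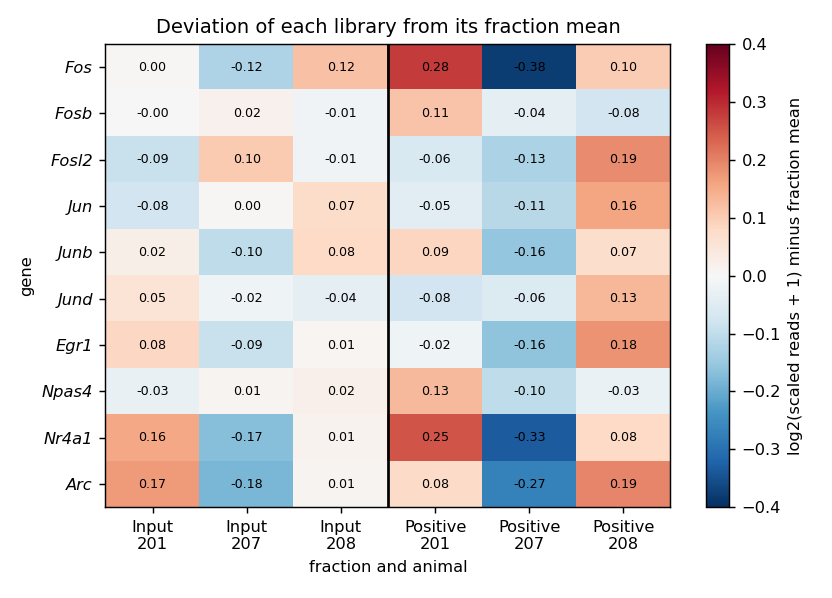
Deviation of each library from the mean of its fraction, in log2(scaled reads + 1), for the 10 genes (rows) and the 6 libraries (columns, Input left of the line and Positive right). The cells of animal 207 are below 0 in both fractions for Fos, Junb, Jund, Egr1, Nr4a1 and Arc, down to -0.38 for Fos in the Positive fraction.

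Genes whose profile over the 6 libraries was most like that of a member were sought among genes averaging 100 scaled reads or more, by the Pearson correlation of log2 scaled reads. These are descriptions over 6 libraries that form 2 fractions and share animals. For Jund the closest were Grik5 (0.998), Clec2l (0.998) and Trim45 (0.997), and for Npas4 Pla2g12a (0.998), Cpe (0.997) and Prr5 (0.996). For Fos they were Ints5 (0.993), Ublcp1 (0.987) and Tubg1 (0.971), and for Jun Snx14 (0.996), Elp3 (0.992) and Enc1 (0.990). Junb was closest to Cstf1 (0.999), Gtf3c5 (0.991) and Pnoc (0.989), and Arc to Cep170b (0.981), Chrna4 (0.976) and Scaf1 (0.975). Among members, Junb stood at place 12 of 12121 genes in its likeness to Fos, with a correlation of 0.958.

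Other genes of the rapid response included larger changes than any member. Of 30 listed genes 29 were tested, and 11 rose, 1 fell and 17 did not pass the test, with a median log2 fold change of 0.28 against -0.01 for all genes. The share called was 41.4%, beside 46.0% of all genes. By direction, 37.9% rose and 3.45% fell, beside 24.0% and 22.0% of all genes. Atf3, a stress-induced partner of Jun proteins, had 26.5, 28.2 and 23.1 scaled reads in Input and 116, 97.8 and 92.4 in Positive, a log2 fold change of 1.97 ± 0.23 (edgeR adjusted p = 1.76e-05). Zfp36, which encodes an mRNA decay factor acting on AU-rich messages, rose by 1.57 ± 0.25 on the log2 scale, the Krüppel-like factor gene Klf4 by 1.76 ± 0.26, and Ier5 by 0.71 ± 0.08. These calls held under all alternatives in which the genes were tested. The Positive values of Klf4 (314, 295 and 156) and Zfp36 (197, 229 and 110) were lowest in animal 208, as were all 8 endothelial markers, all 8 microglial markers and 44.2% of all genes tested, and the part of any cell type in these values was not tested. Relatives of the members, Egr3 and Nr4a3, had log2 fold changes of 0.08 and -0.02 and did not pass the test, and the sign of each changed under other settings. Of the other relatives, named after their values were seen, Egr2 (-0.21), Egr4 (-0.29) and Nr4a2 (0.13) did not pass either, but Egr4 was lower in all 3 animals without overlap of the fractions, and its edgeR adjusted p was 0.0683 unpaired and 0.0236 with the animal as a block. The gene that fell, Gadd45g, was named after its values were seen (-0.39 ± 0.11, edgeR adjusted p = 0.0129), and its edgeR adjusted p was 0.0720 once the Input library of animal 207 was left out and 0.0524 once its Positive library was.

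**Figure D4:**
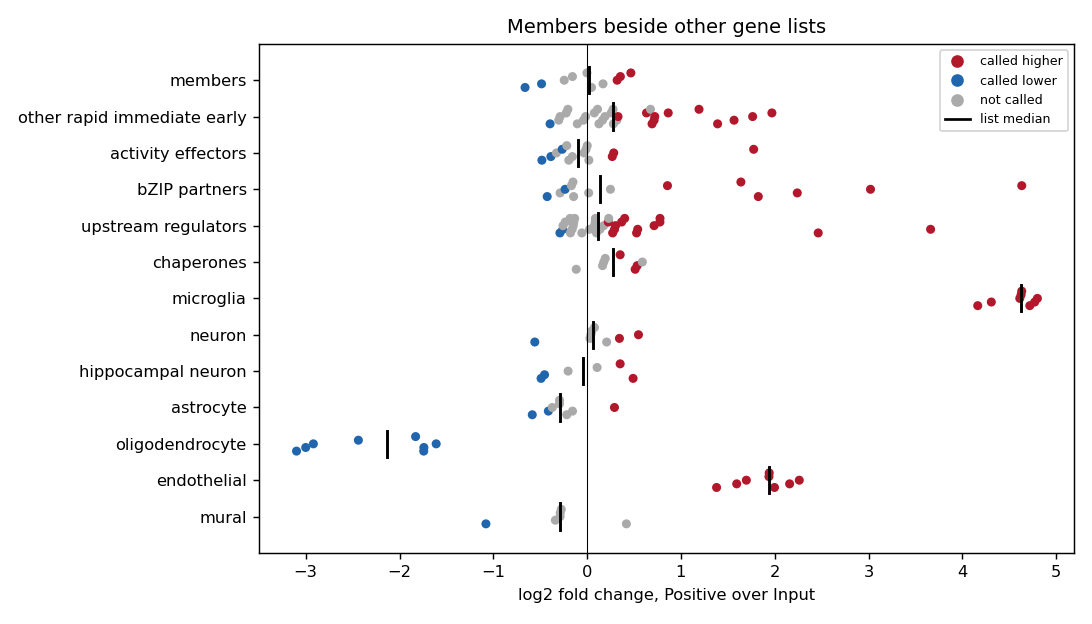
Log2 fold change of Positive over Input (horizontal axis) of each gene tested in 13 lists (vertical axis), with red for genes called higher, blue for genes called lower, grey for genes not called and a black bar at the median of the list. The 10 members lie between -0.66 and 0.47, while the microglial markers lie above 4 and the oligodendrocyte markers below -1.6. The point of the bZIP partner Batf at 4.63 is a fitted value for a gene with 3, 0 and 0 reads in Input.

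Listed effectors of neuronal activity were even in direction. Of 14 tested, 3 rose and 3 fell (median -0.10), a share of 42.9% called beside 46.0% of all genes. Homer1, whose short form loosens glutamate receptor scaffolds, fell by 0.48 ± 0.11 on the log2 scale (edgeR adjusted p = 0.00316), and Nrn1, which encodes neuritin, fell by 0.39 ± 0.09 (edgeR adjusted p = 0.00437). Levels were given per gene, so which form of Homer1 changed was not seen. Rgs2, an inhibitor of G protein signalling, rose from 642, 674 and 586 to 2064, 2505 and 1947 scaled reads, by 1.78 ± 0.10 on the log2 scale (edgeR adjusted p = 2.38e-08). The remaining calls were Plk2 and Scg2, higher by 0.27 and 0.28, and Nptx2, lower (-0.27), which was named after its values were seen. These 3 calls were weak. Each was lost in 3 or more fits without 1 library, with an edgeR adjusted p of up to 0.0749 for Plk2 (Input of animal 207), 0.114 for Scg2 (Input of animal 208) and 0.147 for Nptx2 (Input of animal 207), and that of Nptx2 was 0.0514 with the animal as a block. Without the Input library of animal 208, 3 of these effectors were called in all.

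The proteins that pair with AP-1 or compete for related sites showed the widest range. Of 14 bZIP partner genes tested, 6 rose and 2 fell (57.1% called beside 46.0% of all genes, median 0.13). Maf, which encodes a large Maf factor known from macrophages, rose by 2.24 ± 0.13 on the log2 scale (edgeR adjusted p = 1.56e-08). Batf, a Jun partner of immune cells, had 3, 0 and 0 reads in Input and 28.8, 31.6 and 22.8 scaled reads in Positive. Mafg, a small Maf gene, fell by 0.43 ± 0.07 (edgeR adjusted p = 0.000463), and Nfe2l1 fell by 0.24 ± 0.08 (edgeR adjusted p = 0.0260), a call lost in 5 of the 6 fits without 1 library, with an edgeR adjusted p of up to 0.0978 (Input of animal 201). Atf4, the factor of the integrated stress response, had -0.29 ± 0.12 with an edgeR adjusted p of 0.0625, against 0.00498 with the animal as a block and 0.0020 without the Positive library of animal 208.

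Upstream, 13 of 32 regulators rose and 2 fell (46.9% called, beside 46.0% of all genes). Rps6ka1, an S6 kinase downstream of ERK, went from 226, 196 and 217 to 2776, 3038 and 2268 scaled reads, a log2 fold change of 3.66 ± 0.12 (edgeR adjusted p = 2.1e-10). Elk3, a ternary complex factor, rose by 2.46 ± 0.15, the MADS box factor gene Mef2a by 0.78 ± 0.08 and the ERK kinase gene Map2k1 by 0.54 ± 0.09 (edgeR adjusted p = 2.58e-08, 5.08e-06 and 0.000272). The kinase gene Mapk10 (0.14 ± 0.08) did not pass the test. Crtc1, a CREB coactivator gene, rose by 0.30 ± 0.10 (edgeR adjusted p = 0.0258), and the edgeR adjusted p was 0.0767, 0.1009 and 0.0540 without the Input libraries of animals 201 and 207 and the Positive library of animal 208. The 2 that fell, Elk1 (-0.29) and Rps6ka2 (-0.26), were named after their values were seen, and both calls were lost in 4 or more fits without 1 library, with an edgeR adjusted p of up to 0.130 for Elk1 (Positive of animal 201) and 0.0965 for Rps6ka2 (Input of animal 208).

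Heat shock chaperones, which are induced by stress and by handling of tissue, were listed beside the members. Of 8 tested, 3 rose and 0 fell (37.5% called beside 46.0% of all genes, median 0.27). Hspa8 rose by 0.51 ± 0.08, Hspa1a by 0.53 ± 0.15 and Dnajb1 by 0.35 ± 0.08 on the log2 scale (edgeR adjusted p = 0.000167, 0.0126 and 0.00443). Hspa1a had 147, 146 and 193 scaled reads in Input and 243, 220 and 240 in Positive, and its call was lost without the Input library of animal 207 (edgeR adjusted p = 0.0609). Values of Hsp90aa1 and Hsph1 were 0.18 ± 0.08 and 0.16 ± 0.07 and did not pass. Whether handling of the tissue moved the members or the chaperones was not tested.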

How the data were processed

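The labels put the libraries into 2 fractions of 3 animals each. Per the methods, libraries were directional, and the authors aligned reads to mm10 in Strand NGS using strand. The deposited raw columns hold expected counts (estimated counts that need not be whole), and the deposited normalized columns are log2 values relative to the Input median, made with DESeq scaling. The authors kept genes that reached 20 reads in all libraries of 1 fraction or more, and 0 of 15388 genes fell outside that filter. Between 17.3% and 23.1% of values per library were whole, and 64.7% to 69.3% of the whole values under 60 were even. Counting both mates of a pair would leave such an excess, and how mates were counted is not given in the sources used here.

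Counts were rounded and tested in R 4.3.3 with the edgeR 4.0.16 quasi-likelihood test (glmQLFit, glmQLFTest), unpaired and with RLE scaling. Genes needed over 20 scaled reads throughout 1 fraction or more (44 removed, 15344 tested). Adjusted p-values are Benjamini-Hochberg over all genes tested, at 0.05, and the SE was derived from the F statistic. Ratios within animals used a pseudocount of 1. Alternatives used DESeq2 1.42.0, limma 3.58.1 on the deposited log2 values, other scalings and filters, a block for the animal and each library left out. Scripts were tested on simulated data.

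The 2 libraries with 1 number come from 1 animal, which pairs them by design. Deviations from the fraction means correlated between the 2 libraries of an animal at 0.27 (animal 201), 0.085 (animal 207) and 0.15 (animal 208) over 12122 genes. Between animals the values ran from -0.18 to 0.050, the latter for Input of animal 207 with Positive of animal 208. Deviations from a mean of 3 libraries sum to 0, which lowers the values between animals. The pairing thus showed least for animal 207. The members and lists were chosen with earlier results of these data known. Named beside all 10 members were, for each other list, up to 4 genes with the highest mean and up to 3 called genes with the largest change. Exceptions are marked as named after their values were seen, as are markers of neurons, astrocytes, mural cells and hippocampal subfields. Some genes that this rule took are left out here.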

Additional observations from a re-analysis of the deposited data

How the results depend on the processing

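The calls of Jun, Jund and Npas4 held under all 15 alternatives, and no called member changed direction under any of them. Leaving out single libraries gave 5532 to 7259 genes called and 3 to 6 members, 3 to 7 activity effectors called, and log2 fold changes of 0.32 to 0.64 for Fos. With limma on the deposited log2 values 3 members were called, since Fos (adjusted p = 0.0877) and Junb (adjusted p = 0.0565) were lost. Total count scaling moved the median of all genes from -0.01 to -0.09 and the share of calls that were higher from 52.2% to 41.6%, with 4 members called. It turned the log2 fold change of Fosl2 to -0.0311, of Egr3 to -0.00099 and of Slc17a7 to -0.0465. Over the fits without 1 library, the log2 fold change ranged from -0.0543 to 0.110 for Fosl2, from -0.0964 to 0.0759 for Egr1, from -0.156 to 0.108 for Nr4a3, from -0.0515 to 0.128 for Slc17a7 and from -0.0065 to 0.182 for Neurod6. None of these reversed values passed the test. With the replicate block 7567 genes were called, 7025 of them shared with the 7054 of the unpaired fit. Beyond Nr4a1 and Atf4, the block added calls in the lists for Egr4, Sik1, Mef2d, Neurod2, Rgs5, Aqp4, Aldh1l1 and Kcnj10 and removed that of Nptx2. Halving all reads, an alternative added after the data were seen, left 7082 genes and 5 members called. The lone tagged line and the 3 animals limit the precision. That Fosb, Fosl2, Egr1, Nr4a1 and Arc did not pass the unpaired test does not show that they were equal between the fractions.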
